A study of Mus musculus with 6 samples.

Results

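The serine synthesis and one-carbon enzymes are 9 genes that carry carbon from glycolysis into serine, pass single carbons from serine to folate, and join serine to homocysteine to make cysteine. Phgdh, Psat1, Psph, Shmt1, Shmt2, Mthfd1, Mthfd2, Cbs and Cth were taken as members, and a probe set was counted for a member where the platform annotation pairs it with that symbol alone. This gave 23 probe sets for the 9 genes, of 18194 genes that have such a probe set. The members were chosen by function with results of this same transgenic to wild type contrast already known, in which Phgdh stood among the largest falls. Their fold changes and calls below are therefore a description of these mice and are not independent evidence that the enzymes differ.

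The transgenic group held 3 male mice aged 10 weeks on a C57BL6;SJL background that carried aP2-nSREBP1c, a transgene for the nuclear form of SREBP-1c under the aP2 (Fabp4) promoter. That promoter is active in fat cells and is also known to be active in macrophages. The labels call these animals lipodystrophic. The wild type group held 3 litter-matched males of the same age and background. RNA of the epididymal white fat pad of each mouse went to its own Affymetrix MOE430v2.0 array, and the values are MAS5 signals, a linear brightness per probe set.

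Serine synthesis starts from 3-phosphoglycerate. Phosphoglycerate dehydrogenase, the product of Phgdh, oxidises it, the aminotransferase made from Psat1 adds an amino group, and the phosphatase made from Psph releases free serine. Serine hydroxymethyltransferase then turns serine into glycine and hands a carbon to tetrahydrofolate, in the cytosol (Shmt1) and in mitochondria (Shmt2), and the MTHFD enzymes interconvert the folate-bound carbon in the same compartments (Mthfd1 cytosolic, Mthfd2 mitochondrial). Cbs and Cth encode cystathionine beta-synthase and cystathionine gamma-lyase, the enzymes of transsulfuration. In many cell types ATF4, the transcription factor of the amino acid response, is known to act on several of these genes.

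The windows before the starts of Phgdh and Psph are shown because these genes of a single pathway passed the test in opposite directions. RefSeq promoter entries (GRCm38.p6) matched 8 of the 9 members, with 9 entries in all, each from 250 bases before to 50 bases after a start; Cth had no entry. The 250 bases before the start are printed 5′ to 3′ on the strand of the gene, at chr3:98339970-98340219 (minus strand) for Phgdh and chr5:129787254-129787503 (minus strand) for Psph. Capitals mark CCAAT or its reverse complement, the letters bound by the factor NF-Y.
Phgdh: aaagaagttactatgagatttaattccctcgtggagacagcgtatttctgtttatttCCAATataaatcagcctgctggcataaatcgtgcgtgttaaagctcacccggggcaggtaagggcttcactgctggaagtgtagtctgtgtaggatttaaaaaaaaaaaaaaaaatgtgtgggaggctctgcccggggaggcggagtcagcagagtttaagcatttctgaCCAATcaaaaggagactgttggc
Psph: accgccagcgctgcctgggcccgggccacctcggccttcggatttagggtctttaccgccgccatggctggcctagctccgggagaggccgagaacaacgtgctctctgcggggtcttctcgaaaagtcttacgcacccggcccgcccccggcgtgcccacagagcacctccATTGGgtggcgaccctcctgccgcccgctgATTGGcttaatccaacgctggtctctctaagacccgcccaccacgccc

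In Phgdh CCAAT begins 193 and 23 bases before the start, and in Psph its reverse complement lies 78 and 48 bases before it. Over the whole windows of 300 bases and both strands, CCAAT was found in 7 of 9 member entries and in 37.4% of all 32851 entries. The E-box CACGTG was in the entry of Cbs alone, and in 7.15% of all entries. Neither TTGCATCA, a form of the element that ATF4 binds, nor TCACNCCAC, a form of the sterol regulatory element, was found in any member entry (0 of 9), against 0.895% and 1.24% of all entries. None of these motifs overlaps another. The matches describe letters only.

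Some facts of the arrays bear on every value below. The array of transgenic replicate 2 stood apart: its 3′ over 5′ signal ratio was 122 for the beta-actin control and 55.9 for Gapdh, against 1.11 to 1.81 and 0.772 to 1.22 on the other 5 arrays. Its median signal was 37.7, against 53.4 to 65.4 on the other 5 arrays, a gap that was not normalized away in the main fit. On 5 of the 22 member probe sets that were tested its log2 value lay more than 1 from the mean of the other transgenic mice, by up to 2.80. The same distance passed 1 on 4 probe sets for transgenic replicate 1 and 2 for transgenic replicate 3, and on 1, 1 and 0 for wild type replicates 1, 2 and 3, and the largest of these distances was 1.45. Many results are given with and without transgenic replicate 2. Where only 1 value is given, it is that of all 6 arrays. The 3′ over 5′ ratio of the Pcx control split the arrays in another way, at 3.10 in transgenic replicate 1 and 3.06 in wild type replicate 3, against 14.1 to 52.0 on the other 4 arrays. Where all mice of a group lie on the same side of all mice of the other, the direction also holds within each of these classes of arrays. That follows from the lack of overlap alone and is no separate check on these ratios. The fat identity of the tissue was checked with 10 measured adipocyte markers, of which Fabp4 had 13415 as its median signal in transgenic and 13532 in wild type fat. Fabp4 does not stand for the whole list. By the test given below Adipoq and Lep were lower in transgenic fat, by 1.91-fold and 13.4-fold, and 0 markers of the list were higher. Of 5 measured markers of epididymis and testis, Lcn5, Adam7 and Tnp2 lay below a signal of 16 on all arrays and Defb2 on all but transgenic replicate 2 (18.4). Prm1 had 46.8 to 62.4 in transgenic fat, against 17.2 to 47.0 in wild type fat. Of 3 liver markers, Apoa1 lay below 16 on all arrays and Ttr had 3.6 to 10.8 in transgenic fat, against 12.0 to 22.6 in wild type fat. Alb was measurable, at 125.2 to 167.3 in transgenic fat, against 171.5 to 220.2 in wild type fat. Neither Prm1 nor Alb passed the test given below, and their part in the members' values was not tested.

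Among the 3 genes of serine synthesis, the first and the last steps moved in opposite directions. Phgdh fell, Psph rose, and Psat1 did not pass the test. The test was limma on log2(signal + 16) over 27022 probe sets, with Benjamini-Hochberg adjustment and a threshold of 0.05. By the brightest tested probe set of each gene, 1 of 9 members rose and 1 fell. Of all 13111 genes tested this way 2.23% rose and 1.54% fell. Of the 22 tested member probe sets 1 rose and 4 fell, against 1.67% and 1.30% of all probe sets. Without transgenic replicate 2 again 1 member rose and 1 fell, where 8.04% and 7.33% of all genes did.

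Phgdh had signals of 325.9, 192.1 and 320.6 in transgenic replicates 1, 2 and 3, against 5107, 5012 and 4631 in wild type replicates 1, 2 and 3 (probe set 1426658_x_at). Every transgenic mouse lay far below every wild type mouse, and the groups had means of 280 ± 75.8 and 4916 ± 252 (SD, n = 3 each). Phgdh was 17.1-fold lower in transgenic fat, a log2 fold change of -4.10 ± 0.26 SE (limma adjusted p = 0.00142). It passed the threshold whichever array was left out, with an adjusted p of at most 0.0233. Without transgenic replicate 2 the log2 fold change was -3.86 ± 0.15 SE. Unlike those of genes near background, its fold change moved little with the offset, to -4.17 with 1 and -3.88 with 64.

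All 4 Phgdh probe sets were lower in transgenic fat and passed the test. The most changed, 1454714_x_at, had 113.7, 172.9 and 192.2 in transgenic fat, against 6010, 5327 and 5351 in wild type fat, which is 32.4-fold lower (log2 fold change -5.02 ± 0.26 SE, limma adjusted p = 0.000865). Those named 1437621_x_at and 1456584_x_at were 29.1-fold and 19.0-fold lower. Each of the 4 carries the suffix by which the array's maker marks probes that may match other sequences. A further pair of probe sets is assigned in the annotation to Phgdh together with a predicted gene, and so was not counted. The set shared with Gm8096 had 67.8, 2.1 and 36.9 in transgenic fat, against 2169, 2177 and 2222 in wild type fat. The set shared with Gm6756 had 180.2, 228.1 and 399.9 in transgenic fat, against 2421, 2567 and 2445 in wild type fat. In neither did the groups overlap.

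Psph, which has a single probe set here, ran the other way. Its signals were 2023, 2049 and 1998 in transgenic replicates 1, 2 and 3, against 432.7, 382.2 and 382.1 in wild type replicates 1, 2 and 3. The transgenic mice were almost level with each other, transgenic replicate 2 included, and the groups did not overlap. Means were 2023 ± 25.7 in transgenic and 399 ± 29.2 in wild type fat (SD, n = 3 each). Psph rose 4.92-fold (log2 fold change 2.30 ± 0.20 SE, limma adjusted p = 0.00331), and its adjusted p stayed under the threshold with any array left out, at most 0.0441.

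Psat1, the step between them, differed less. Probe set 1451064_a_at had 1017, 1092 and 1391 in transgenic replicates 1, 2 and 3, against 2001, 1624 and 1728 in wild type replicates 1, 2 and 3. The transgenic values were all below the wild type values, but the difference did not pass the test (log2 fold change -0.61 ± 0.22 SE, 95% interval -1.14 to -0.09, limma adjusted p = 0.233). The second probe set, 1454607_s_at, had 865.1, 1498 and 1139 in transgenic fat, against 1388, 1462 and 1440 in wild type fat. Here transgenic replicate 2 lay above all wild type mice. Its log2 fold change was -0.32 ± 0.25 SE (limma adjusted p = 0.561), and -0.52 ± 0.18 SE (limma adjusted p = 0.0904) without that array. With that array left out and the other 5 quantile normalized, an alternative chosen after the data were seen, the first probe set passed the threshold (-0.63, limma adjusted p = 0.00493).

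**Figure D1:**
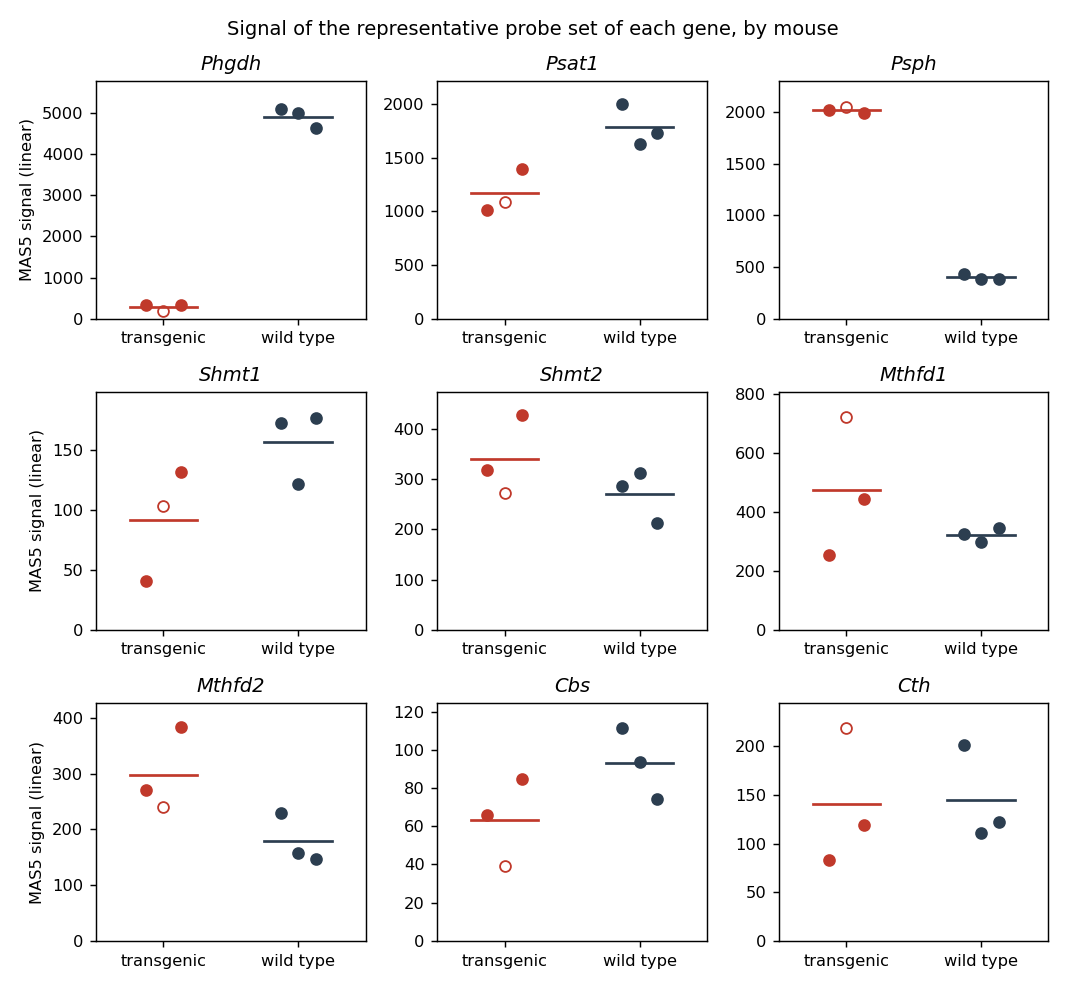
MAS5 signal (linear axis from 0) of the brightest tested probe set of each of the 9 genes, 1 point per mouse, transgenic at left and wild type at right, with a bar at each group's mean. The open point is transgenic replicate 2. Phgdh sits at 192 to 326 in transgenic fat and at 4631 to 5107 in wild type fat, Psph at 1998 to 2049 and 382 to 433, while the other genes differ less or overlap.

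The enzymes that take the carbon from serine did not pass the test. Cytosolic Shmt1 had 40.7, 103.1 and 131.5 in transgenic replicates 1, 2 and 3, against 171.9, 121.5 and 176.5 in wild type replicates 1, 2 and 3 (probe set 1425177_at). Transgenic replicate 3 lay above the lowest wild type mouse, so the groups overlapped, and the log2 fold change was -0.77 ± 0.39 SE (95% interval -1.71 to 0.16, limma adjusted p = 0.391). Leaving out transgenic replicate 2 gave Shmt1 -0.90 ± 0.37 SE (limma adjusted p = 0.159). Its other tested probe sets, 1425178_s_at and 1425179_at, had 0.08 ± 0.21 and 0.17 ± 0.28 SE. The remaining one, 1422198_a_at, had signals of 2.8 to 32.5 in transgenic fat, against 3.8 to 7.6 in wild type fat, and was too dim to be tested.

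Mitochondrial Shmt2 had 318.0, 273.1 and 427.7 in transgenic replicates 1, 2 and 3, against 286.7, 312.8 and 212.5 in wild type replicates 1, 2 and 3 (probe set 1455084_x_at). The groups overlapped, and the log2 fold change was 0.30 ± 0.28 SE (95% interval -0.36 to 0.97, limma adjusted p = 0.617). Leaving out transgenic replicate 2 gave Shmt2 0.44 ± 0.23 SE (limma adjusted p = 0.264), with no overlap between the groups. Its other 3 probe sets ranged from -0.62 ± 0.74 SE to 0.02 ± 0.23 SE. The lowest of these, 1426423_at, read 4.7 in transgenic replicate 2, against 124.4 and 131.7 in transgenic replicates 1 and 3 and 85.6 to 111.9 in wild type fat, and without that array it had 0.31 ± 0.21 SE (limma adjusted p = 0.401).

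Of the folate enzymes, Mthfd1 overlapped between the groups. Its brightest probe set, 1415916_a_at, had 251.7, 721.5 and 444.1 in transgenic replicates 1, 2 and 3, against 324.5, 298.9 and 344.3 in wild type replicates 1, 2 and 3. The highest value was that of transgenic replicate 2, and the log2 fold change was 0.41 ± 0.39 SE (95% interval -0.51 to 1.33, limma adjusted p = 0.625), or 0.05 ± 0.25 SE without it. On probe set 1415917_at the same array was the lowest of all, at 145.6 against 291.9 to 410.3 on the other 5 arrays. The third probe set, 1436704_x_at, had 96.5, 68.3 and 79.5 in transgenic fat, against 94.1, 73.7 and 77.7 in wild type fat.

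Mthfd2 was higher in every transgenic mouse on its brighter probe set, without passing the test. The signals of 1419253_at were 270.8, 239.9 and 382.8 in transgenic replicates 1, 2 and 3, against 230.1, 158.5 and 147.1 in wild type replicates 1, 2 and 3. The lowest transgenic value was only just above the highest wild type value, and the log2 fold change was 0.69 ± 0.29 SE (95% interval -0.0025 to 1.38, limma adjusted p = 0.306). Probe set 1419254_at had 184.2, 19.4 and 209.8 in transgenic fat, against 116.2, 89.8 and 112.1 in wild type fat, with transgenic replicate 2 alone below the wild type mice. Without that array the probe sets had 0.82 ± 0.25 SE (limma adjusted p = 0.0608) and 0.81 ± 0.21 SE (limma adjusted p = 0.0328), so that the second passed the threshold. With array weights the first probe set passed too (0.92, limma adjusted p = 0.0428).

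**Figure D2:**
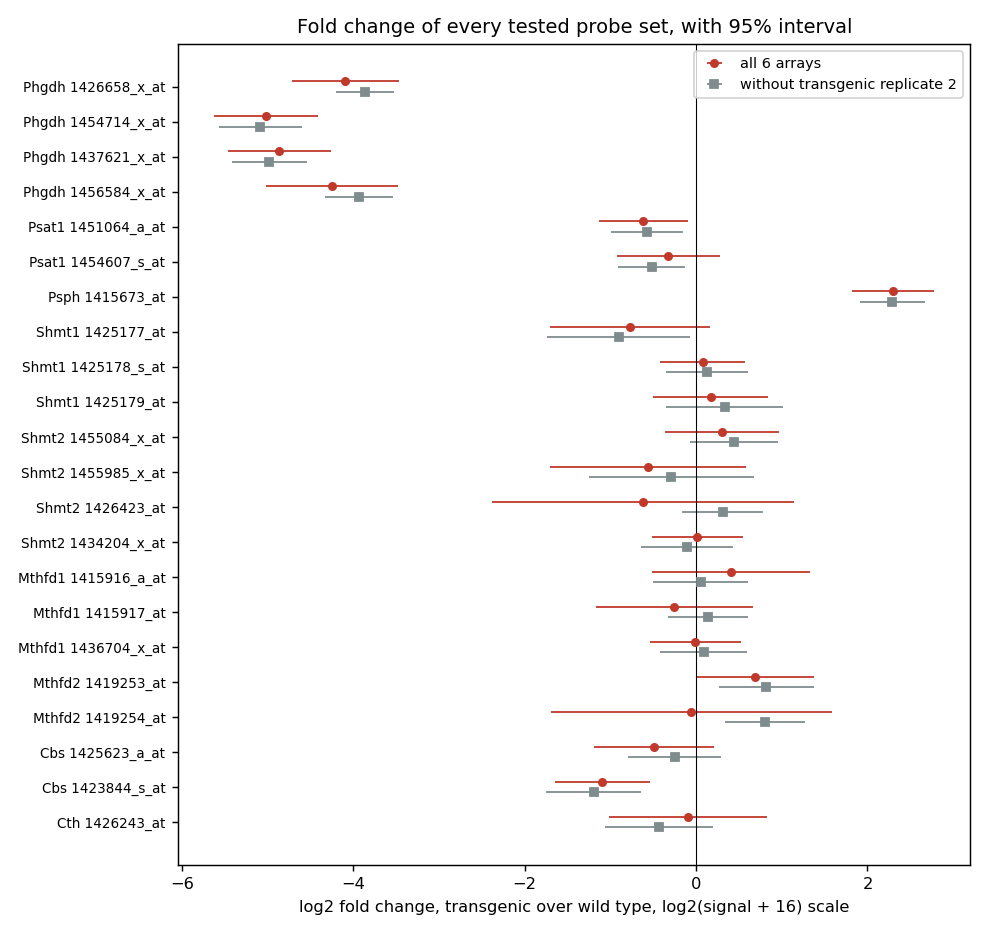
Log2 fold change of transgenic over wild type fat, on the log2(signal + 16) scale, for the 22 tested probe sets of the 9 genes, with its 95% interval, for all 6 arrays (circles) and without transgenic replicate 2 (squares). The Phgdh probe sets lie between -5.02 and -4.10 and Psph at 2.30 with all arrays, whereas 1426423_at of Shmt2 and 1419254_at of Mthfd2 have wide intervals that narrow without transgenic replicate 2.

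Of the transsulfuration enzymes, Cbs was dim and its probe sets differed. Probe set 1425623_a_at had 65.8, 39.2 and 84.6 in transgenic replicates 1, 2 and 3, against 111.5, 93.4 and 74.1 in wild type replicates 1, 2 and 3, with overlap between the groups (log2 fold change -0.49 ± 0.29 SE, limma adjusted p = 0.463). Leaving out transgenic replicate 2 gave it -0.25 ± 0.24 SE (limma adjusted p = 0.574). Probe set 1423844_s_at had 35.0, 45.0 and 32.3 in transgenic fat, against 115.9, 102.2 and 77.9 in wild type fat. Here every transgenic mouse was below every wild type mouse, and the log2 fold change was -1.09 ± 0.23 SE (limma adjusted p = 0.0638), or -1.19 ± 0.24 SE (limma adjusted p = 0.0117) without transgenic replicate 2. Cth had 82.9, 219.2 and 118.9 in transgenic replicates 1, 2 and 3, against 201.5, 110.9 and 122.3 in wild type replicates 1, 2 and 3. The mice of the groups were interleaved, with a log2 fold change of -0.09 ± 0.39 SE (95% interval -1.02 to 0.83, limma adjusted p = 0.919). For Cth the value without transgenic replicate 2 was -0.44 ± 0.28 SE (limma adjusted p = 0.374).

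**Figure D3:**
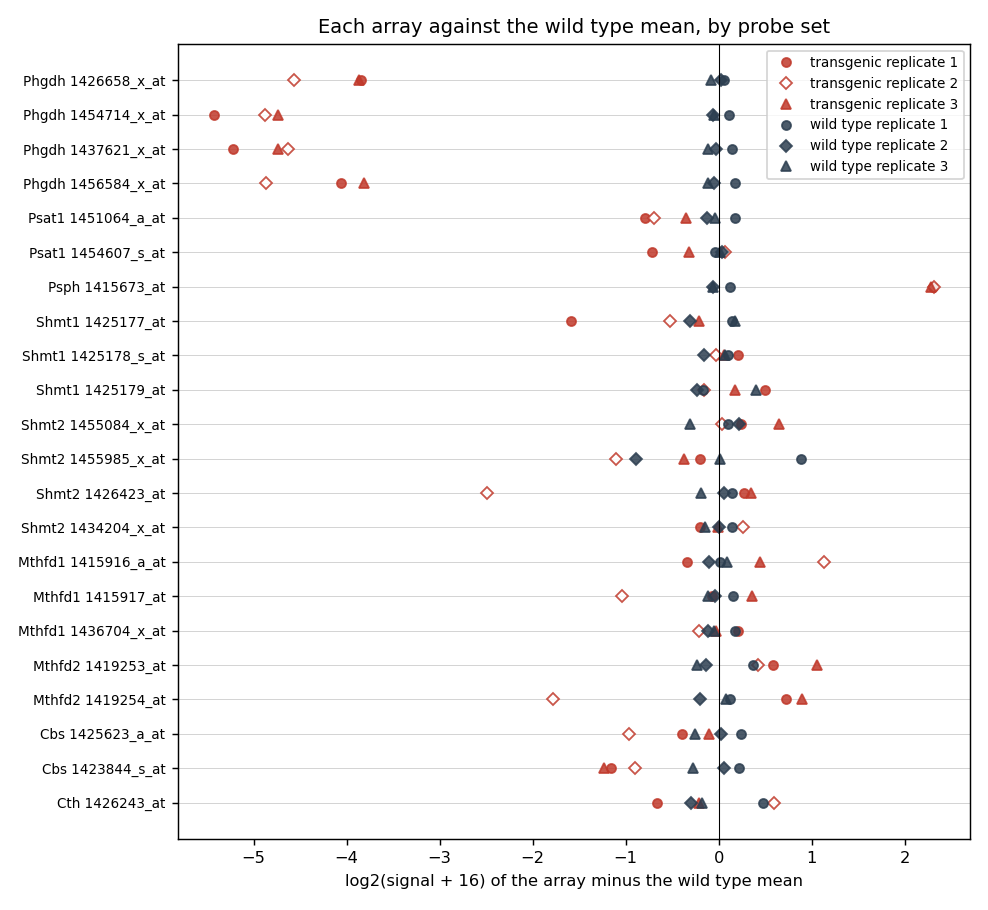
Log2(signal + 16) of each array minus the wild type mean, for the 22 tested probe sets, transgenic arrays in red and wild type arrays in dark blue, with a symbol for each replicate number and an open diamond for transgenic replicate 2. Transgenic replicates 1 to 3 lie together for Psph and for each Phgdh probe set, while transgenic replicate 2 stands alone at the low end for 1426423_at of Shmt2 and 1419254_at of Mthfd2.

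Markers of cell types were read in the same pads, where fewer cells of a type and less RNA per cell cannot be told apart. The summed signal of the 10 adipocyte markers was 53622 to 68773 in transgenic fat, against 88286 to 97349 in wild type fat. Of these 10 markers 2 fell (Adipoq and Lep), 0 rose and 8 did not pass the test, and without transgenic replicate 2, 6 fell. For 10 macrophage markers the sum was 23706 to 30658 in transgenic fat, against 16807 to 19358 in wild type fat. Of these 10 markers 1 rose (Fcgr1), and 4 rose and 1 fell without transgenic replicate 2. The other tested probe set of Fcgr1 did not share its call. The sum of 5 endothelial markers was 1369 to 3668 in transgenic fat, against 5153 to 5635 in wild type fat, and 0 of the 5 passed the limma test (4 fell without transgenic replicate 2). For 5 mesothelial markers it was 519.8 to 1721 in transgenic fat, against 4324 to 5034 in wild type fat, and 2 fell (Msln and Krt19; 4 without transgenic replicate 2). The sum of 4 progenitor markers was 1682 to 2534 in transgenic fat, against 3366 to 3740 in wild type fat. Of these 1 fell (Dpp4), and 2 fell without transgenic replicate 2 (Dpp4 and Pi16). Of 3 other tested Dpp4 probe sets 1 had the same call with all arrays. Pi16 was 10.2-fold lower (limma adjusted p = 0.0543, and 0.000504 without transgenic replicate 2). Pdgfra had a log2 fold change of 0.17 with all arrays and -0.23 without that array, and was not called either way. For 5 B and T cell markers the sum was 450.7 to 601.1 in transgenic fat, against 339.8 to 358 in wild type fat, and 0 passed the limma test (1 rose without transgenic replicate 2). The part of these shifts in the values of Phgdh, Psph and the other enzymes was not tested.

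Around the members, 9 lists of neighbouring genes were read, with 126 genes in all, of which 115 were measured and 100 tested. Of the 100, 5 rose and 4 fell, which is 5% and 4%, against 2.23% and 1.54% of all genes tested. Without transgenic replicate 2, 14 rose and 12 fell (14% and 12%), against 8.04% and 7.33% of all genes. Their median log2 fold change was 0.06, against -0.04 over all genes tested, and 0.16, against 0.02, without that array.

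The list of serine and glycine carriers and serine-using enzymes held the largest of these changes in RNA signal. Slc7a10, the carrier Asc-1 that exchanges small neutral amino acids such as serine and glycine, had 103.1, 57.3 and 169.2 in transgenic replicates 1, 2 and 3, against 2877, 2061 and 2640 in wild type replicates 1, 2 and 3. All transgenic mice were far below all wild type mice, and Slc7a10 was 21.4-fold lower (log2 fold change -4.42 ± 0.38 SE, limma adjusted p = 0.00327). Sptlc3, a subunit of serine palmitoyltransferase, which joins serine to a fatty acyl-CoA in the first step of sphingolipid synthesis, had 232.8, 482.6 and 209.9 in transgenic fat, against 9.5, 6.2 and 10.7 in wild type fat. Its wild type signals lie below the 16 added before the logarithm, so the size of its rise (log2 fold change 3.62 ± 0.34 SE, limma adjusted p = 0.00394) depends on that offset (4.91 with an offset of 1 and 2.28 with 64). The filter on dim probe sets used the mean over all arrays, so Sptlc3 was tested only because of its transgenic signals. Its call is given as a description. Sptlc1 and Sptlc2, of the same list, were not called, with log2 fold changes of 0.31 and 0.56 (limma adjusted p = 0.613 and 0.316). The other 12 tested genes of the list of 14 serine and glycine carriers and serine-using enzymes did not pass the test, while without transgenic replicate 2 the list had 3 higher, 2 lower and 9 not called. Among the 12 the serine carrier gene Slc1a4 had 146.9, 310.3 and 206.9 in transgenic fat, against 84.7, 71.5 and 60.2 in wild type fat (limma adjusted p = 0.0733, and 0.0135 without transgenic replicate 2). Slc38a2, also among the 12, had 1574, 2626 and 1455 in transgenic fat, against 750.1, 728.9 and 628.9 in wild type fat (limma adjusted p = 0.0606, and 0.00272 without transgenic replicate 2). Slc1a5, a carrier of neutral amino acids, had 3229, 1266 and 3685 in transgenic fat, against 7351, 6730 and 7367 in wild type fat. It was 2.88-fold lower with no overlap between the groups (log2 fold change -1.53 ± 0.39 SE, limma adjusted p = 0.109), and passed the threshold without transgenic replicate 2 (-1.05, limma adjusted p = 0.000928).

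Of 6 genes of lower glycolysis, Pgam2, the muscle form of phosphoglycerate mutase, which takes 3-phosphoglycerate onward and away from serine, rose. It had 206.2, 115.8 and 220.9 in transgenic fat, against 5.2, 6.8 and 6.8 in wild type fat (log2 fold change 3.10 ± 0.28 SE, limma adjusted p = 0.00357), again from wild type signals below the offset (4.60 with an offset of 1 and 1.77 with 64). Like Sptlc3, Pgam2 passed the filter on dim probe sets only through its transgenic signals, and its call is a description. The other 5 did not pass the test with all arrays (2 of the 6 rose without transgenic replicate 2), and neither did any of the 3 skeletal muscle markers tested (Acta1, Ckm and Mylpf). Acta1 had 172.1, 25.7 and 125.0 in transgenic fat, against 1043, 393.4 and 1004 in wild type fat (limma adjusted p = 0.0737), and it was lower by the test without transgenic replicate 2 (log2 fold change -2.23, limma adjusted p = 0.00471). Ckm had 124.5, 48.8 and 123.4 in transgenic fat, against 85.5, 69.2 and 96.2 in wild type fat. Mylpf had 39.1 to 50.1 in transgenic fat, against 22.8 to 50.1 in wild type fat, and Myh4 was too dim to be tested.

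Of 13 folate enzymes and carriers 1 was higher and 1 lower by the test, and the other 11 were not called. Aldh1l2, the mitochondrial dehydrogenase that burns formyl-folate to carbon dioxide, had 105.1, 178.6 and 171.4 in transgenic fat, against 41.5, 23.6 and 39.1 in wild type fat. It rose 3.28-fold (log2 fold change 1.71 ± 0.29 SE, limma adjusted p = 0.0294). Like Sptlc3 and Pgam2, Aldh1l2 passed the filter on dim probe sets only through its transgenic signals, and its call is a description. Without that filter its limma adjusted p was 0.0558. Slc19a1, the reduced folate carrier, had 121.8, 113.3 and 174.3 in transgenic fat, against 477.3, 395.1 and 311.5 in wild type fat. It was 2.70-fold lower (log2 fold change -1.43 ± 0.28 SE, limma adjusted p = 0.049), close to the threshold, and its second tested probe set was not called. With 1 array left out the adjusted p reached 0.172 for Aldh1l2 (without wild type replicate 2) and 0.249 for Slc19a1 (also without wild type replicate 2).

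Of 14 genes of the methionine cycle and choline oxidation Nnmt alone fell. It encodes the nicotinamide methyltransferase, which uses up methyl groups in fat, and had 783.6, 1029 and 1064 in transgenic fat, against 4072, 3438 and 2911 in wild type fat. That is 3.58-fold lower (log2 fold change -1.84 ± 0.23 SE, limma adjusted p = 0.0101, up to 0.0965 without wild type replicate 2). None (0) of 11 genes of cysteine use and sulfide passed the limma test with all arrays, but 3 rose and 4 fell without transgenic replicate 2. Among the 4 was Cdo1, cysteine dioxygenase, at 3681, 2507 and 4774 in transgenic fat, against 7726, 8204 and 8510 in wild type fat (limma adjusted p = 0.0542, and 0.00267 without transgenic replicate 2). Among the 3 was Gclm, a subunit of the enzyme that starts glutathione synthesis, at 1074, 739.2 and 842 in transgenic fat, against 342.4, 354.7 and 428.7 in wild type fat (limma adjusted p = 0.0617, and 0.00226 without transgenic replicate 2).

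Genes of ATF4 and the amino acid response were called in both directions. Of 25 tested, 2 rose (Nupr1 and Atf3), 1 fell (Stc2) and 22 did not pass the test, and the median log2 fold change was 0.001. Without transgenic replicate 2, 5 rose, 4 fell and 16 did not pass, and the median was 0.30, against 0.02 over all genes. Nupr1, a stress-induced chromatin protein gene, had 4444, 3558 and 5149 in transgenic fat, against 1481, 1304 and 1022 in wild type fat (log2 fold change 1.78 ± 0.23 SE, limma adjusted p = 0.0127). Atf3, a stress-induced transcription factor gene, was 3.01-fold higher and Stc2, a stanniocalcin gene, 2.61-fold lower, with limma adjusted p of 0.0337 and 0.0327. Leaving out wild type replicate 2 or 3 raised the adjusted p of these 3 genes to as much as 0.0895, 0.195 and 0.212. Of 2 other tested Stc2 probe sets 1 had the same call. Asns, asparagine synthetase, a standard target of ATF4, had 524.6, 724.5 and 769.6 in transgenic fat, against 1405, 1121 and 1252 in wild type fat (limma adjusted p = 0.127, and 0.0147 without transgenic replicate 2). It was 1 of the 4 that fell without that array, with Stc2, Sesn2 and Eif4ebp1. The 5 that rose were Nupr1, Atf3, Fgf21, Slc7a5 and Cebpb. With all arrays Fgf21 was 4.18-fold, Slc7a5 2.33-fold and Cebpb 1.89-fold higher, with no overlap between the groups. Their limma adjusted p was 0.0829, 0.182 and 0.0824, and 0.00169, 0.00132 and 0.014 without transgenic replicate 2. Wild type Fgf21 signals were dim (8.9 to 37.3) and partly below the offset of 16, so the size of its rise depends on that offset. Fgf21 passed the filter on dim probe sets only through its transgenic signals, and its call without transgenic replicate 2 is a description. Atf4 itself had 1667, 727.1 and 2667 in transgenic fat, against 1355, 1365 and 1152 in wild type fat, with overlap between the groups. Only transgenic replicate 2 lay below wild type mice. The log2 fold change of Atf4 was 0.20 (limma adjusted p = 0.846), and 0.71 (limma adjusted p = 0.0624) without that array.

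None (0) of 2 tested genes of glycine cleavage, of 6 genes of purine synthesis, which uses folate-bound carbon, and of 9 proliferation genes passed the limma test, with all arrays or without transgenic replicate 2. Among the proliferation genes Mki67 had 160.0, 335.0 and 153.2 in transgenic fat, against 214.3, 62.3 and 77.9 in wild type fat. Gldc, which encodes the glycine decarboxylase of the cleavage system, was dim, with 12.4, 44.3 and 12.3 in transgenic fat, against 4.0, 4.0 and 21.0 in wild type fat, and was not tested.

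**Figure D4:**
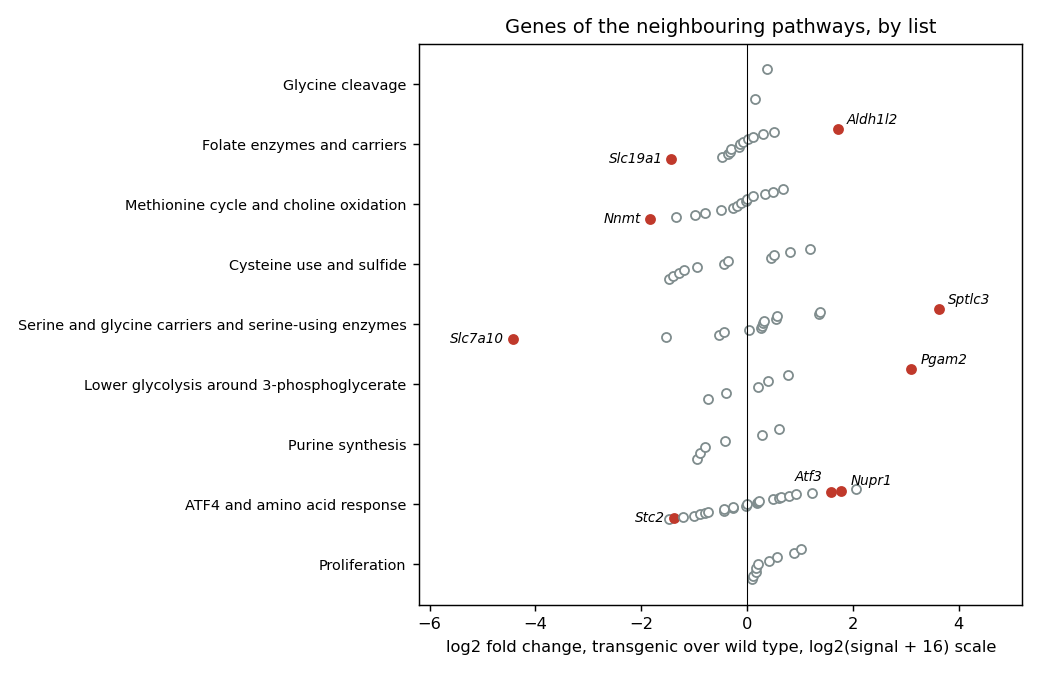
Log2 fold change of transgenic over wild type fat, on the log2(signal + 16) scale, of the 100 tested genes of the 9 neighbouring lists, 1 row per list and 1 point per gene. Filled and named points passed the limma test (5 higher, 4 lower), with Slc7a10 at -4.42 and Sptlc3 at 3.62 at the ends.

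The genes whose pattern over the 6 arrays was nearest to that of Phgdh, by the mean absolute difference of their log2 values after the wild type mean was taken off, were Sfrp5 (0.185), Kcnj15 (0.208) and Slc6a13 (0.277). Sfrp5, a secreted Wnt antagonist gene, had 44.2, 32.9 and 81.1 in transgenic fat, against 1361, 1040 and 1107 in wild type fat. Kcnj15, a potassium channel gene, had 17.2, 21.2 and 20.0 in transgenic fat, against 627.9, 546.8 and 555.6 in wild type fat. Slc6a13, a GABA transporter gene, had 67.2, 6.5 and 31.4 in transgenic fat, against 799.5, 770.4 and 568.6 in wild type fat. Their log2 fold changes were -4.16, -4.06 and -4.01, and the likeness rests on that single step between the groups. The signals of Kcnj15 in transgenic fat, and of Slc6a13 in transgenic replicate 2, lie near or below the offset of 16, and which genes come nearest depends on it. With an offset of 1, chosen after the data were seen, Kcnj15 stood at rank 4 and Slc6a13 at rank 19, and with 64 they stood at ranks 12 and 13. Sfrp5 held rank 2 with either of these offsets.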

How the data were processed

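RNA of 6 mice was measured, 1 array per mouse, with groups taken from the sample titles. The deposited table holds linear signal intensities that MAS5 gave the authors (per the submitters' processing notes), with no version, scaling target or detection call given in the sources used here, and the number of arrays limits the precision. All 45101 probe sets were read, and 0 columns belonged to other samples. No normalization between arrays was added in the main fit. The 64 control probe sets and then the 40% with the lowest mean log2(signal + 16) over all 6 arrays were left out. The rest were tested with lmFit and eBayes (trend = TRUE) of limma 3.58.1 in R 4.3.3, two-sided, with Benjamini-Hochberg adjustment over all tested probe sets. The fit was also run on simulated data with changes planted in brighter probe sets only. That run checked the mean size of the estimates, and it is no check on the calls or on dim genes. Figures used Python 3.11.15 and matplotlib 3.10.9.

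A gene was represented by its brightest tested probe set. Neighbouring genes named in the text are those of each list past the threshold, and some others were chosen after their values were seen (Slc1a4, Slc38a2, Slc1a5, Sptlc1, Sptlc2, Cdo1, Gclm, Asns, Sesn2, Eif4ebp1, Fgf21, Slc7a5, Cebpb, Atf4, Acta1, Ckm, Mki67 and Gldc). The members and lists were chosen with earlier results of these data known. Alternatives were other offsets, filters, normalizations, variance models and array weights, each array left out, the mean over probe sets, and the replicate number as a block. Same-numbered arrays did not deviate together (correlations of -0.37, 0.09 and -0.05 for numbers 1, 2 and 3), so the numbers were not taken as pairs. Each array is a separate animal, and p-values reflect both animal and handling spread.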

Additional observations from a re-analysis of the deposited data

How the results depend on the processing

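Phgdh and Psph kept their direction and passed the threshold under each of the alternatives run, including every single array left out. None of the called neighbouring genes changed sign under an alternative in which it was tested. The cell type markers were not followed through all the alternatives. The number of members called changed under 2 alternatives: with array weights 2 members rose (Psph and Mthfd2), and with transgenic replicate 2 left out and quantile normalization, chosen after the data were seen, 2 rose and 2 fell (Psph and Mthfd2, and Phgdh and Psat1). For the neighbouring genes, 5 of which rose and 4 fell, the counts were 10 and 7 with quantile normalization, 16 and 12 with array weights, 21 and 16 with transgenic replicate 2 left out and quantile normalization, and 2 and 1 with the replicate number as a block. With a filter of 60% 2 rose, with centring on array medians 1 fell, and when arrays were blocked by their Pcx 3′ over 5′ ratio (under 10 or above), also chosen later, 2 fell. Leaving out each array gave 2 to 14 that rose and 1 to 12 that fell. Over all probe sets, 452 of which rose and 350 fell, the counts were 696 and 552 with quantile normalization, 1912 and 1449 with array weights, 193 and 148 with the replicate block, and 2419 and 2566 with quantile normalization and transgenic replicate 2 left out. They were 91 to 1882 and 50 to 1683 with 1 array left out; the lowest values came without wild type replicate 2 and the highest without transgenic replicate 2. The cause of these shifts was not tested. The median log2 fold change of all probe sets was -0.09, 0.04 after quantile normalization and 0.13 after centring, and 0.03 without transgenic replicate 2. Signals below about 16 give no reliable fold change.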
